A study of Mus musculus with 4 samples.

Results

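The genes described here encode the translation initiation factors (eIFs) and elongation factors (eEFs) of the mouse. They were taken by symbol, as every gene named Eif1 to Eif6 or Eef1 to Eef2 with any suffix, leaving out the Eif2ak kinases, a rule that uses no measured value. This gave 64 genes of the 26322 listed, of which 59 passed a filter on low values (2 or more libraries at a log2 CPM of 0 or above). No such factor differed past the threshold between MC38 cells that had received a guide against Cbfb (sgCbfb) and cells that had received a non-targeting guide (sgNT). The closest were Eif4g3 and Eif2a, both at lower values in sgCbfb cells. Their adjusted p-values lay just above the threshold and passed it under several other settings.

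MC38 is a mouse colon cancer cell line. Cas9 protein loaded with either guide was electroporated into the cells, which were harvested a week or more later, so that both arms had been electroporated with Cas9 and a guide. The sgNT group (labelled WT) and the sgCbfb group (labelled CbfbKO) each held 2 libraries made from mRNA 3′ ends, after the third sample of each group had been set aside for the quality of its RNA. No other agent is named and no isolation of clones is mentioned. The labels do not say whether the libraries came from separate cultures, so that p-values measure only the spread between these libraries.

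Translation begins when eIF2 carries the initiator tRNA to the small ribosomal subunit, which eIF3, eIF1, eIF1A and eIF5 prepare for scanning, while eIF2B recharges eIF2 with GTP. The cap-binding complex eIF4F, made of the cap binder eIF4E, the scaffold eIF4G and the RNA helicase eIF4A, brings the mRNA, and the 4E-BPs hold eIF4E away from eIF4G. eIF5B joins the large subunit, after which eEF1 delivers tRNAs, eEF2 moves the ribosome along and eIF5A helps it past difficult peptide bonds. CBFβ is the non-DNA-binding partner of RUNX transcription factors, and a cytoplasmic role has also been reported in which it binds mRNAs through hnRNPK and promotes their translation through eIF4B. The comparison asks whether mRNAs of the translation machinery differed when Cbfb was targeted. It measures mRNA and says nothing of protein or of translation itself.

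The libraries held 3396192 and 3335116 reads on genes in sgNT and 3907936 and 3189035 in sgCbfb, so that 3 reads corresponded to 0.768 to 0.941 CPM, the counts scaled to a common library total. Cbfb itself had 295 and 285 reads in sgNT and 125 in both sgCbfb libraries, a difference of -1.27 (SE 0.12) on the log2 scale that passed the threshold (limma, adjusted p = 1.76e-07). Over all 12207 tested genes, 345 passed an adjusted p of 0.05, which is 2.83%, with 192 higher and 153 lower in sgCbfb. The split depended on scaling, with 174 higher and 243 lower when voom was run with median scaling. With either sgCbfb library left out, no gene passed and Cbfb itself was lost, although at an unadjusted p under 0.05 limma still gave 579 higher and 525 lower without the first and 696 and 473 without the second. Defining markers of colon epithelium were close to absent, with 5 to 7 reads summed over 10 genes in each library and Krt18, Cdx1, Vil1 and Lgals4 at 0 in all 4. Markers of leukocytes (6 genes) and endothelium (3 genes) each summed to at most 6 reads in any library.

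Of the 59 factors tested, 0 were called higher and 0 lower, beside 1.57% and 1.25% of all tested genes (limma). At an unadjusted p under 0.05 there were 3 higher and 6 lower, which together make 15.3% of the factors against 14.9% of all tested genes. Each direction read separately gave 5.08% of the factors higher and 10.2% lower, against 9.67% and 5.23% of all tested genes. The counts moved with scaling, with 3 of the 59 factors higher and 11 lower under voom with median scaling, beside 906 and 946 of 12207 genes. With median centring they were 3 and 9, beside 1018 and 787. Under each of these scalings more factors were lower than higher. The split also rested on single libraries, since the excess of lower factors was not kept with each library left out. Those fits leave 1 library in a group. The differences in log2 CPM (sgCbfb minus sgNT) ran from -0.50 to 0.42 with a median of 0.0070, beside a median of 0.039 over all tested genes. There were 30 positive and 29 negative values. The median was -0.028 under voom with median scaling and -0.016 with median centring, beside 0.00026 and 0.016 over all tested genes. The factors' median minus that of all tested genes was thus -0.032 in the reported test, -0.029 under voom with median scaling and -0.032 with median centring. With 1 library left out this offset ran from -0.046 to -0.0060. In size the factors' differences had a median of 0.089, against 0.17 over all tested genes, and the gap between replicates had a median of 0.077 in sgNT and 0.076 in sgCbfb, against 0.178 and 0.173 over all tested genes. Both sgCbfb libraries lay above both sgNT libraries for 17 factors (28.8%, against 27.4% of all tested genes) and below them for 15 (25.4%, against 16.8%).

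The intervals were narrow for most factors. The 95% confidence interval of the difference lay within 2-fold in either direction for 58 of the 59, within 1.5-fold for 52 and within 1.25-fold for 36. Over all 12207 tested genes, not matched for level, the same limits held 8867, 5968 and 2328. The exception at 2-fold was Eif3j2, which had 9 to 15 reads per library. The plot of differences shows this factor by factor.

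**Figure D1:**
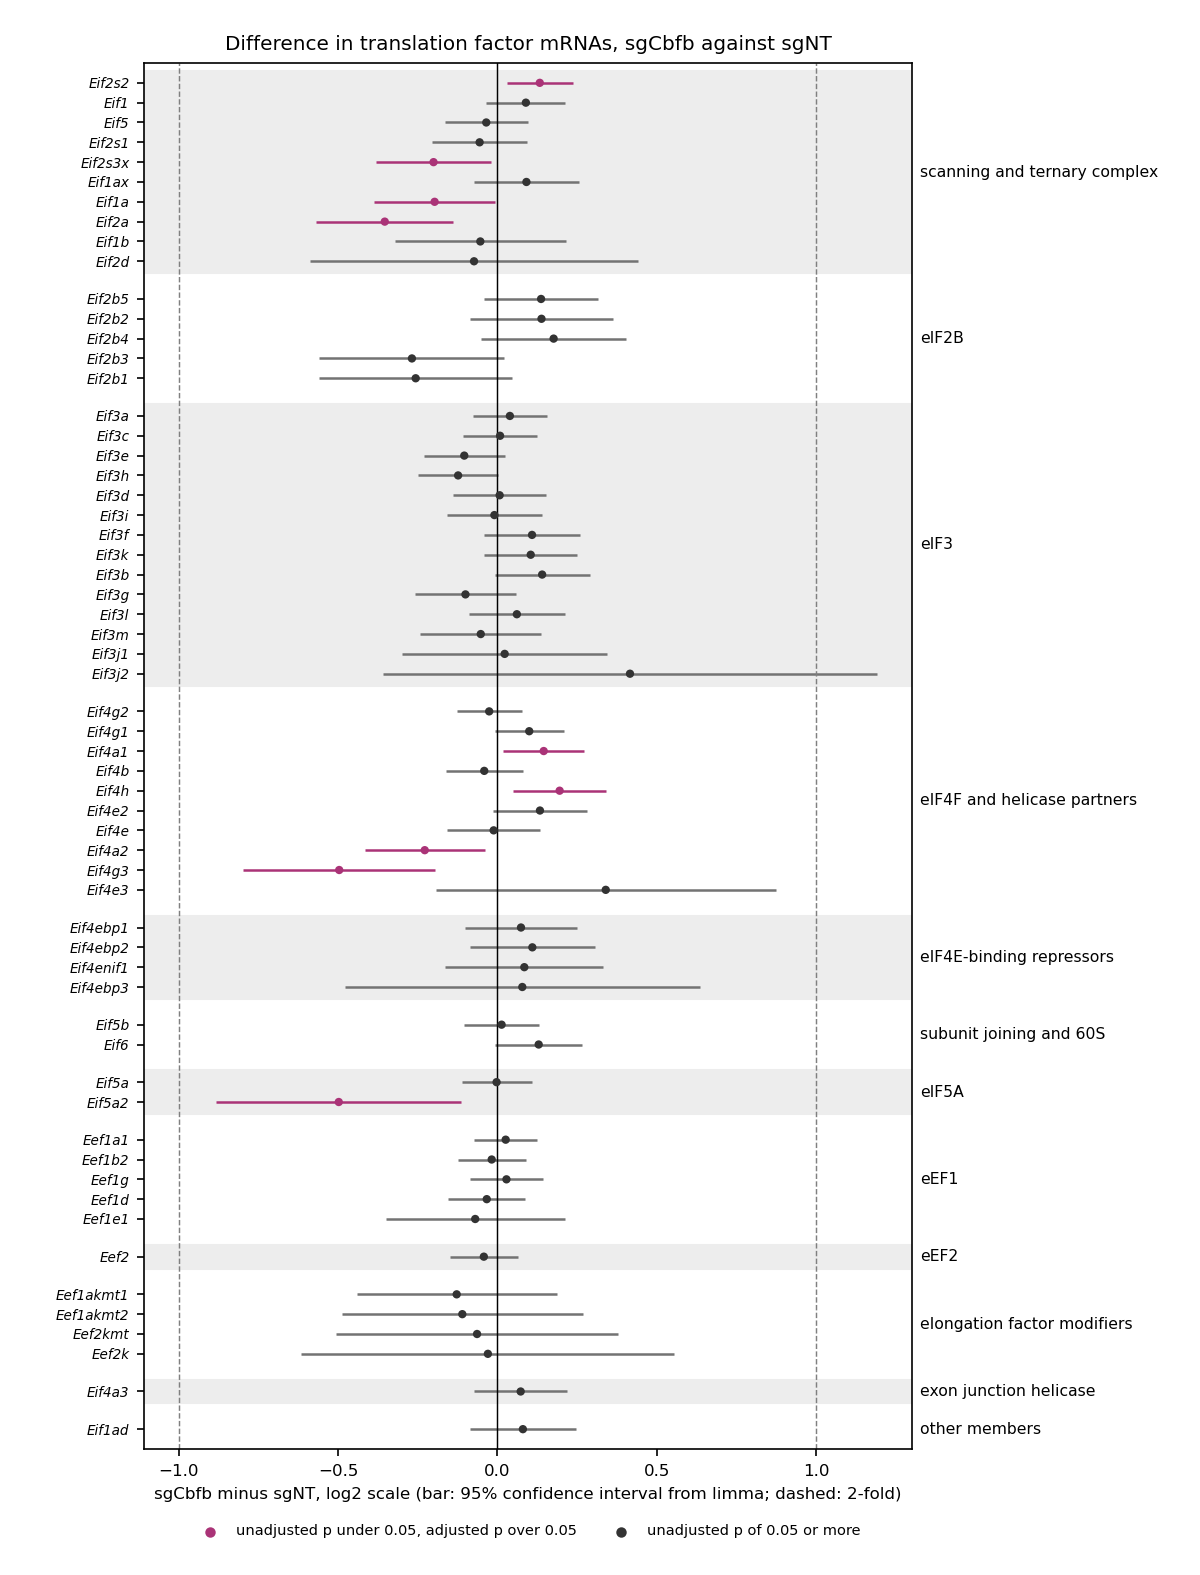
Difference in log2 CPM between sgCbfb and sgNT for the 59 tested factors, grouped by complex and ordered by level within each group. Points are the difference, bars are the 95% confidence interval from limma, dashed lines mark 2-fold, and the 9 coloured factors have an unadjusted p under 0.05. Most points sit close to 0, and no adjusted p is under 0.0680.

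The 64 genes together took 2.60% and 2.62% of the reads in sgNT and 2.69% and 2.60% in sgCbfb. The small excess of the first sgCbfb library is smaller when the ribosomal RNA genes Rn45s and Rn18s are left out of the totals, at 3.07% and 3.08% in sgNT and 3.09% and 3.05% in sgCbfb. The allocation among complexes was also close between the groups. Because each mRNA gives reads from its 3′ end in these libraries, reads were compared between genes without dividing by length. The eEF1 group held 30.9% and 31.5% of the factors' reads in sgNT and 31.3% and 31.0% in sgCbfb. The eIF4F group held 18.3% and 18.2% against 18.3% and 18.5%. The eIF3 group held 17.1% in both sgNT libraries against 16.9% and 16.8%. The scanning and ternary complex group held 13.7% and 13.8% against 14.1% and 14.0%, and eEF2 held 5.17% and 5.26% against 5.04% and 4.94%. Before rounding, the groups overlapped for eEF1 and did not overlap for eIF4F, eIF3, scanning and eEF2. These small gaps were not tested.

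**Figure D2:**
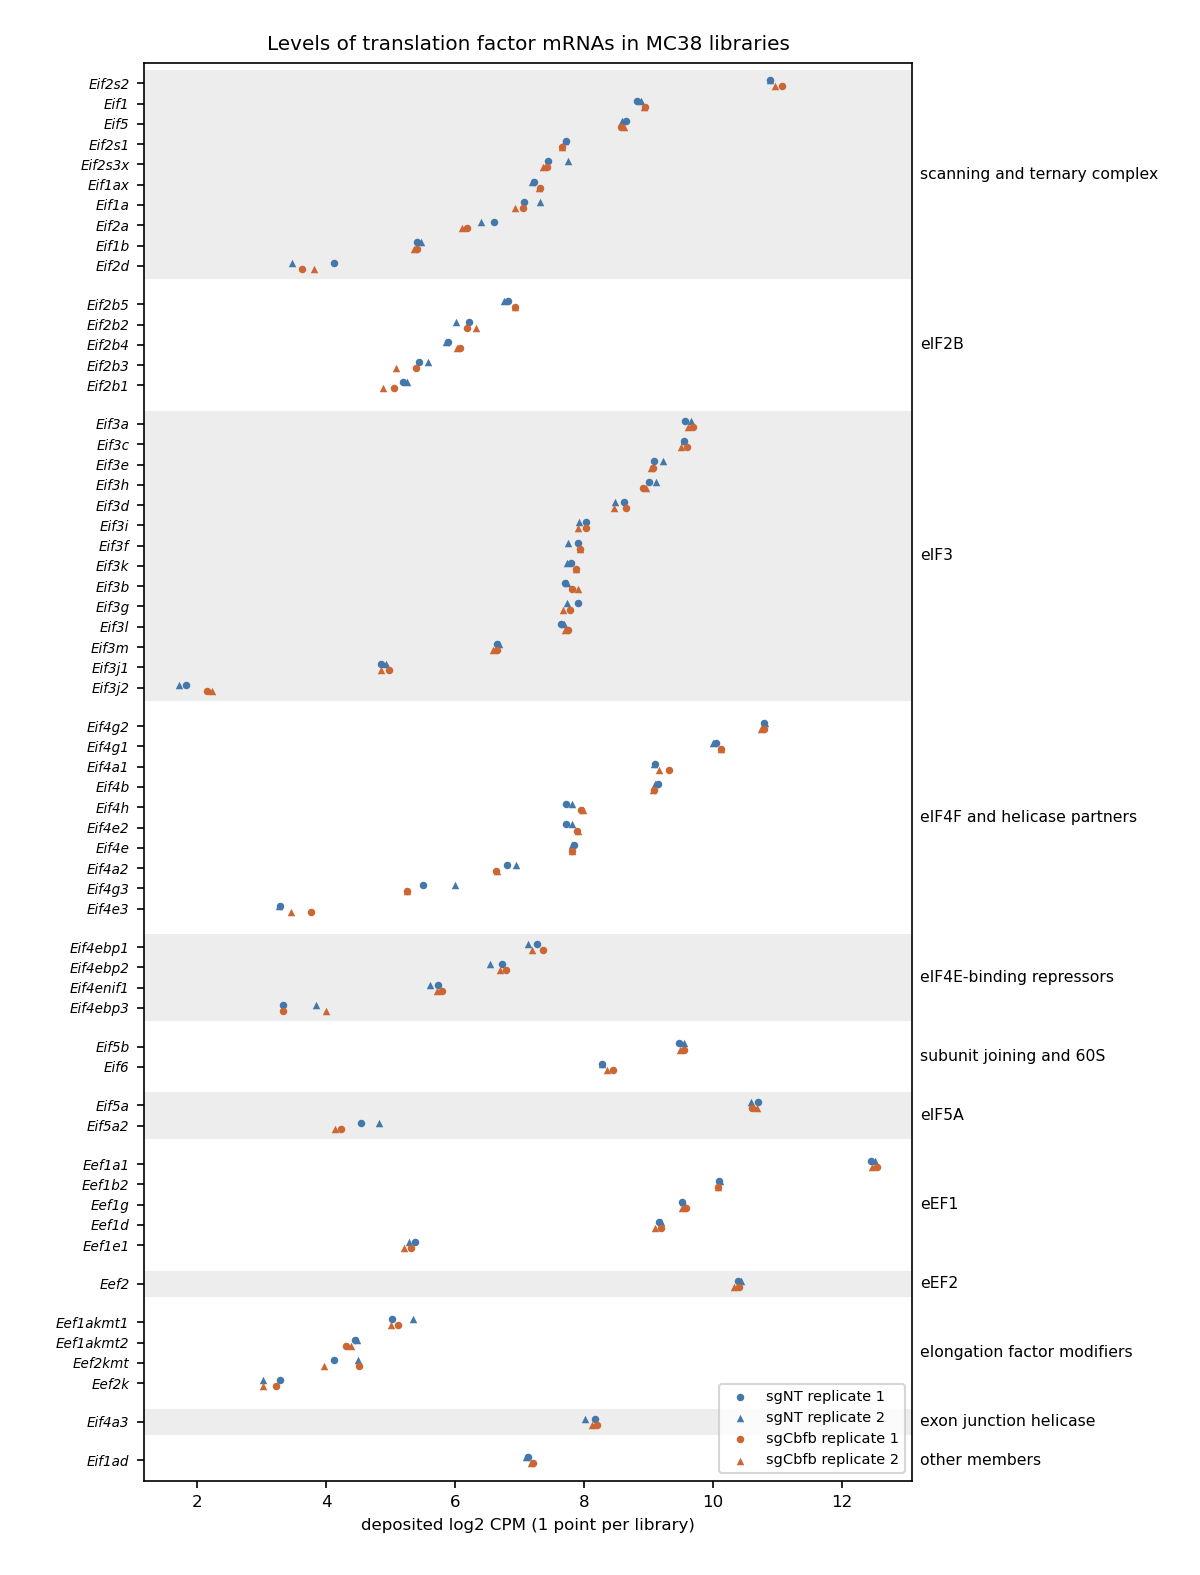
Deposited log2 CPM of the 59 tested factors in each of the 4 libraries (circle, replicate 1; triangle, replicate 2; blue, sgNT; orange, sgCbfb), grouped by complex. Levels span from 1.97 for Eif3j2 to 12.49 for Eef1a1 in the mean of the libraries, while the points of a single factor lie close together.

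Among the factors of scanning and the ternary complex, 10 of 11 were tested, with 1 higher and 3 lower at an unadjusted p under 0.05 and a median difference of -0.055. Eif2s2, the β subunit of eIF2 and the most abundant of this group, was at log2 CPM 10.88 in both sgNT libraries and 11.06 and 10.97 in sgCbfb (6396, 6299, 8348 and 6386 reads). Both sgCbfb libraries were above both sgNT libraries, by 0.13 (SE 0.050, 95% interval 0.029 to 0.24), without passing the threshold (limma, adjusted p = 0.183). It passed only with voom on library totals (adjusted p = 0.0191), and the difference was 0.086 without the first sgCbfb library. Of the last 400 bases of its transcripts, 19.7% of 75-base words also occur in another gene. The γ subunit Eif2s3x, which holds the GTP, was at 7.45 and 7.75 in sgNT and 7.42 and 7.37 in sgCbfb, a difference of -0.20 (SE 0.087, adjusted p = 0.268 from limma), and the sgNT replicates were further apart than the groups. The difference was -0.35 without the first sgNT library and -0.050 without the second. Of the last 400 bases of its transcripts, 39.0% of 75-base words also occur in another gene, so that its reads may be shared. The α subunit Eif2s1, whose phosphorylation shuts down initiation and whose values were seen before it was chosen, stood at 7.72 and 7.70 against 7.66 and 7.65, a difference of -0.056 (adjusted p = 0.792 from limma). The subunits thus did not lie on the same side of 0. The Y-linked copy Eif2s3y had 0 reads in every library.

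Eif2a, which can place the initiator tRNA without GTP and is a different protein from the eIF2 α subunit, had 327 and 279 reads in sgNT and 281 and 218 in sgCbfb. Its gene lies at chr3:58525821-58557501 on the plus strand (GRCm38), and its exons overlap those of Serp1 on the opposite strand. Its log2 CPM was 6.60 and 6.40 in sgNT and 6.18 and 6.11 in sgCbfb, so that both sgCbfb libraries were below both sgNT libraries. The difference was -0.35 (SE 0.10, 95% interval -0.57 to -0.14), which leaves sgCbfb at 78.3% of sgNT (limma adjusted p = 0.0688). The call depended on the setting. It passed with a filter at 5 CPM (adjusted p = 0.0264), with each library centred on its median (0.0485) and with voom on recovered reads scaled by totals (0.0476) or by medians (0.0269). Over all alternatives its adjusted p ran from 0.0264 to 0.722 and its difference from -0.45 to -0.25.

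Eif1a, which with eIF1 keeps the scanning subunit open, was at 7.06 and 7.31 in sgNT and 7.05 and 6.93 in sgCbfb, a difference of -0.20 (SE 0.092, adjusted p = 0.308 from limma). It was -0.32 without the first sgNT library and -0.073 without the second. Its X-linked copy Eif1ax, chosen after its values were seen, lay the other way, at 7.23 and 7.19 against 7.31 and 7.29 (0.091, adjusted p = 0.662 from limma). The remaining tested factors of this group, Eif1, Eif1b, Eif5 and Eif2d, had unadjusted p-values over 0.05.

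All 5 subunits of eIF2B, the exchange factor for eIF2, were tested, and none had an unadjusted p under 0.05. The catalytic subunit Eif2b5 was at log2 CPM 6.82 and 6.76 in sgNT and 6.92 and 6.93 in sgCbfb, a difference of 0.14 (SE 0.087, adjusted p = 0.505 from limma). Another 2 subunits are given although they were picked after their values were seen, since they lay on the other side. Eif2b3, partner of the catalytic subunit, was at 5.44 and 5.57 against 5.39 and 5.08 (-0.27, adjusted p = 0.386 from limma), a difference that was -0.43 without the first sgCbfb library and -0.11 without the second. Eif2b1, of the regulatory core, was at 5.19 and 5.25 against 5.05 and 4.88 (-0.26, adjusted p = 0.440 from limma). The subunits therefore ran in both directions, with 3 positive and 2 negative values.

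The eIF3 group, the scaffold on which the small subunit collects the other factors, had 14 tested members, none with an unadjusted p under 0.05, and a median difference of 0.016. For 12 of them the 95% interval lay within 1.25-fold. Eif3a, the large core subunit, was at log2 CPM 9.57 and 9.65 in sgNT and 9.69 and 9.61 in sgCbfb, a difference of 0.039 (SE 0.057, adjusted p = 0.819 from limma), with the groups overlapping. The smallest p in the group belonged to Eif3h, picked for that after the values were seen, at 9.01 and 9.11 against 8.90 and 8.97 (-0.12, adjusted p = 0.346 from limma). Its groups did not overlap, and the difference was -0.073 without the second sgNT library. Eif3j2, named after its values were seen as the least abundant factor tested, had 10, 9, 15 and 13 reads, and 77.0% of the 75-base words of its 3′ end occur in other genes, its paralog Eif3j1 among them.

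The 10 tested members of the eIF4F group had 2 higher and 2 lower values at an unadjusted p under 0.05 and a median difference of 0.044. Eif4b, the helicase cofactor named in the reported role of CBFβ in translation, lies at chr15:102073773-102097173 on the plus strand. It had 1924 and 1822 reads in sgNT and 2125 and 1714 in sgCbfb, or log2 CPM 9.15 and 9.10 against 9.09 and 9.07. Both sgCbfb libraries were below both sgNT libraries, but by less than the replicates of sgNT differed from each other. The fitted difference was -0.041 (SE 0.058, 95% interval -0.16 to 0.079, adjusted p = 0.814 from limma). It was negative and short of the threshold under every alternative, from -0.081 to -0.015.

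Eif4g3, a large scaffold paralogous to Eif4g1, had the smallest p of all the factors. It lies at chr4:137993022-138208508 on the plus strand and had 151 and 210 reads in sgNT and 146 and 119 in sgCbfb. Its log2 CPM was 5.49 and 5.99 in sgNT and 5.25 and 5.24 in sgCbfb. Both sgCbfb libraries were below both sgNT libraries, while the sgNT replicates were about as far apart as the group means. The difference was -0.50 (SE 0.15, 95% interval -0.80 to -0.20), or 70.9% of sgNT (limma adjusted p = 0.0680). The size rests on the second sgNT library, with -0.25 (adjusted p = 0.590) when it was left out and -0.75 (adjusted p = 0.0134) when the first sgNT library was left out instead. It also passed with a filter at 5 CPM (adjusted p = 0.0140), median centring (0.0479) and voom scaled by totals (0.0378) or medians (0.0298). With no low-value filter its adjusted p was 1.

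The helicase itself is encoded by paralogs that lay on opposite sides of 0. Eif4a1 was at log2 CPM 9.10 and 9.09 in sgNT and 9.32 and 9.16 in sgCbfb, a difference of 0.15 (SE 0.062, adjusted p = 0.254 from limma), which was 0.064 without the first sgCbfb library and 0.23 without the second. Eif4a2 was at 6.80 and 6.95 against 6.64 and 6.65, a difference of -0.23 (SE 0.091, adjusted p = 0.213 from limma). For both the groups did not overlap. Eif4h, which stimulates the helicase as Eif4b does, was at 7.72 and 7.81 in sgNT and 7.94 and 7.98 in sgCbfb (715, 745, 960 and 801 reads). Its difference was 0.20 (SE 0.071, 95% interval 0.048 to 0.34, adjusted p = 0.165 from limma), again with no overlap. The most abundant member was Eif4g2, a scaffold that lacks the cap-binder site, at 10.79 and 10.80 against 10.79 and 10.75 (-0.026, adjusted p = 0.873 from limma). Its difference was -0.048 without the first sgCbfb library and -0.0034 without the second. Eif4e, the cap binder, was chosen after its values were seen. It was at 7.84 and 7.81 in sgNT and 7.81 in both sgCbfb libraries, a difference of -0.012 (95% interval -0.16 to 0.13).

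**Figure D3:**
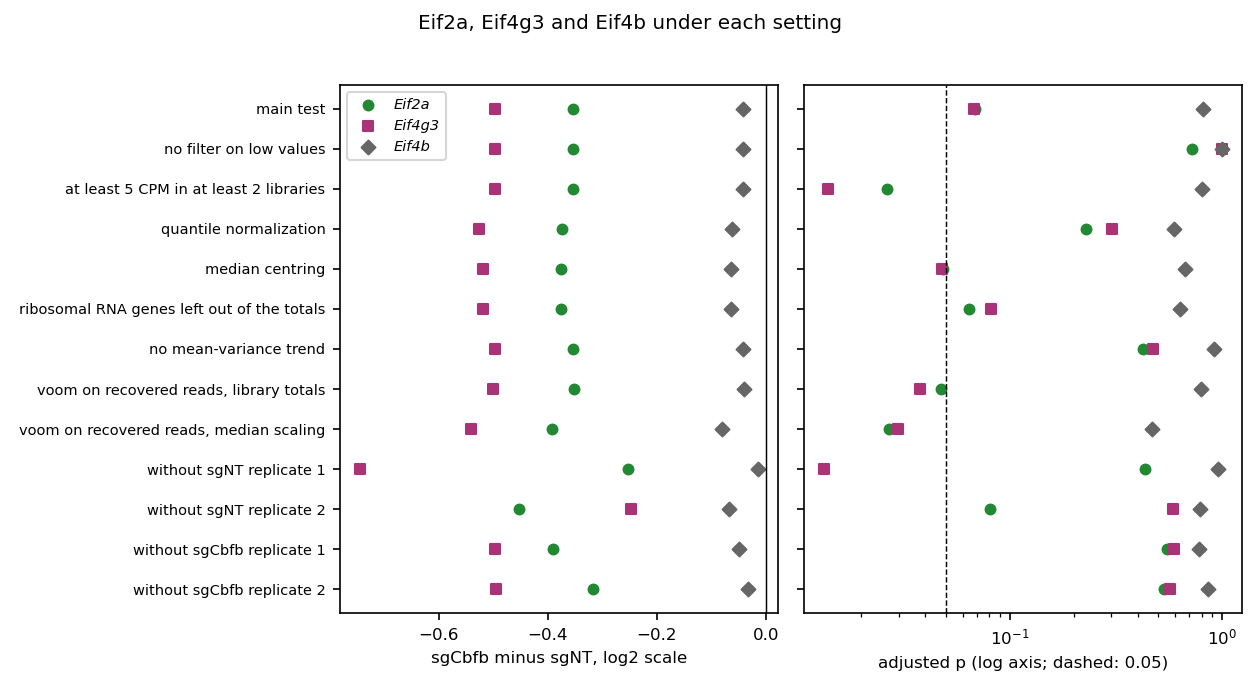
Difference (left, log2 scale) and limma adjusted p (right, log axis, dashed line at 0.05) of Eif2a, Eif4g3 and Eif4b in the reported test and under 12 alternative settings, the replicate block not being drawn. Eif2a and Eif4g3 stay below 0 in each setting while their adjusted p falls on either side of the line, and Eif4b stays between 0.466 and 1.

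The repressors that bind eIF4E had 4 tested members, all with positive differences from 0.074 to 0.11 (positive under each scaling, though not with every library left out), and all with overlapping groups. Eif4ebp1, the best known of the 4E-BPs, was at log2 CPM 7.26 and 7.13 in sgNT and 7.35 and 7.19 in sgCbfb, a difference of 0.074 (SE 0.085, adjusted p = 0.761 from limma) that ran from -0.0076 to 0.16 with 1 library left out. The least abundant, Eif4ebp3, also named after its values were seen, had 32, 46, 37 and 49 reads. All of the 75-base words of its 3′ end also occur in another gene.

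Both factors of subunit joining had positive differences. Eif5b, the joining GTPase, was at 9.47 and 9.54 in sgNT and 9.55 and 9.48 in sgCbfb (0.013, adjusted p = 0.950 from limma). At its 3′ end 50.6% of the words are shared, its exons overlap those of Rev1, and its sign turned with scaling. Eif6, which keeps the large subunit apart until joining and was chosen after its values were seen, was at 8.28 and 8.27 against 8.45 and 8.36 (0.13, SE 0.066, adjusted p = 0.367 from limma), with 0.085 when the first sgCbfb library was left out.

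Of the eIF5A paralogs, Eif5a was among the most abundant factors, at log2 CPM 10.70 and 10.59 in sgNT and 10.61 and 10.68 in sgCbfb, a difference of -0.0026 (95% interval -0.11 to 0.11, adjusted p = 0.990 from limma) whose sign turned under quantile normalization. Eif5a2, which lies at chr3:28781276-28798846 on the plus strand, had only 77 and 92 reads in sgNT and 71 and 54 in sgCbfb. Its log2 CPM was 4.54 and 4.82 against 4.23 and 4.13, with no overlap. The difference was -0.50 (SE 0.19, 95% interval -0.88 to -0.11), without passing the threshold (limma, adjusted p = 0.177).

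The eEF1 genes took more reads than any other group and had the smallest median size of difference, 0.028. Of these genes, 5 of 6 were tested, with differences between -0.070 and 0.028. Eef1a1, which delivers tRNAs to the ribosome, had 19024 and 19377 reads in sgNT and 23339 and 18016 in sgCbfb, or 21.6% to 22.2% of all reads on the 64 genes. Its log2 CPM was 12.45 and 12.50 against 12.54 and 12.46, a difference of 0.026 (SE 0.048, 95% interval -0.073 to 0.12, adjusted p = 0.866 from limma) whose sign turned with median scaling. The groups overlapped, and 59.1% of the words at its 3′ end occur in 12 other genes. Its paralog of muscle and neurons, Eef1a2, had 1 read in the first sgNT library and 0 elsewhere.

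Eef2, the translocase, was at 10.39 and 10.43 in sgNT and 10.41 and 10.33 in sgCbfb, a difference of -0.043 (95% interval -0.15 to 0.065, adjusted p = 0.777 from limma). It was -0.083 without the first sgCbfb library and -0.0025 without the second. The 4 enzymes that modify elongation factors had negative differences, from -0.13 to -0.030 (negative under each scaling, though not with every library left out), none with an unadjusted p under 0.05. The most abundant of them, the lysine methyltransferase Eef1akmt1, had 108 and 134 reads against 133 and 100 (-0.13 on the log2 scale, SE 0.15, adjusted p = 0.770 from limma), with overlapping groups and a range of -0.29 to 0.038 with 1 library left out. Eif4a3, a helicase of the exon junction complex that shares a family name with the initiation factors, was at 8.16 and 8.02 against 8.20 and 8.13 (0.073, adjusted p = 0.703 from limma), a difference of 0.0021 without the second sgNT library and 0.14 without the first. Eif1ad, a relative of eIF1A, was at 7.12 and 7.10 against 7.20 and 7.18 (0.080, adjusted p = 0.719 from limma).

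The 5 factors that did not pass the filter had at most 3 reads in any library. They were Eif2s3y and Eif4e1b, at 0 in all 4, Eef1a2, the pseudogene Eif1-ps3 and Eif2c5, a non-coding RNA in GENCODE that the symbol rule also takes in.

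Ratios between paralogs within a library do not depend on its scaling, and they were set side by side for 9 pairs chosen with the values known, so that they are a description. In 8 of the 9 pairs the groups did not overlap, with the ratio higher in sgCbfb in 5 and lower in 3. No such count was made over other gene pairs, so that these have no baseline. For Eif4a1 over Eif4a2 the log2 ratio of reads was 2.30 and 2.15 in sgNT and 2.69 and 2.51 in sgCbfb. For Eif4g1 over Eif4g3 it was 4.57 and 4.02 against 4.90 and 4.89. For Eif5a over Eif5a2 it was 6.20 and 5.81 against 6.42 and 6.60. In these 3 pairs the scarcer paralog took a smaller share in sgCbfb. The reverse held for Eif4e over Eif4e3, at 4.64 and 4.63 against 4.10 and 4.44, and for Eif3j1 over Eif3j2, at 3.26 and 3.46 against 3.00 and 2.79. For Eif4ebp1 over Eif4ebp2 the groups overlapped, at 0.53 and 0.59 against 0.56 and 0.49. With 2 libraries a group an exact permutation test cannot go below 0.333.

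**Figure D4:**
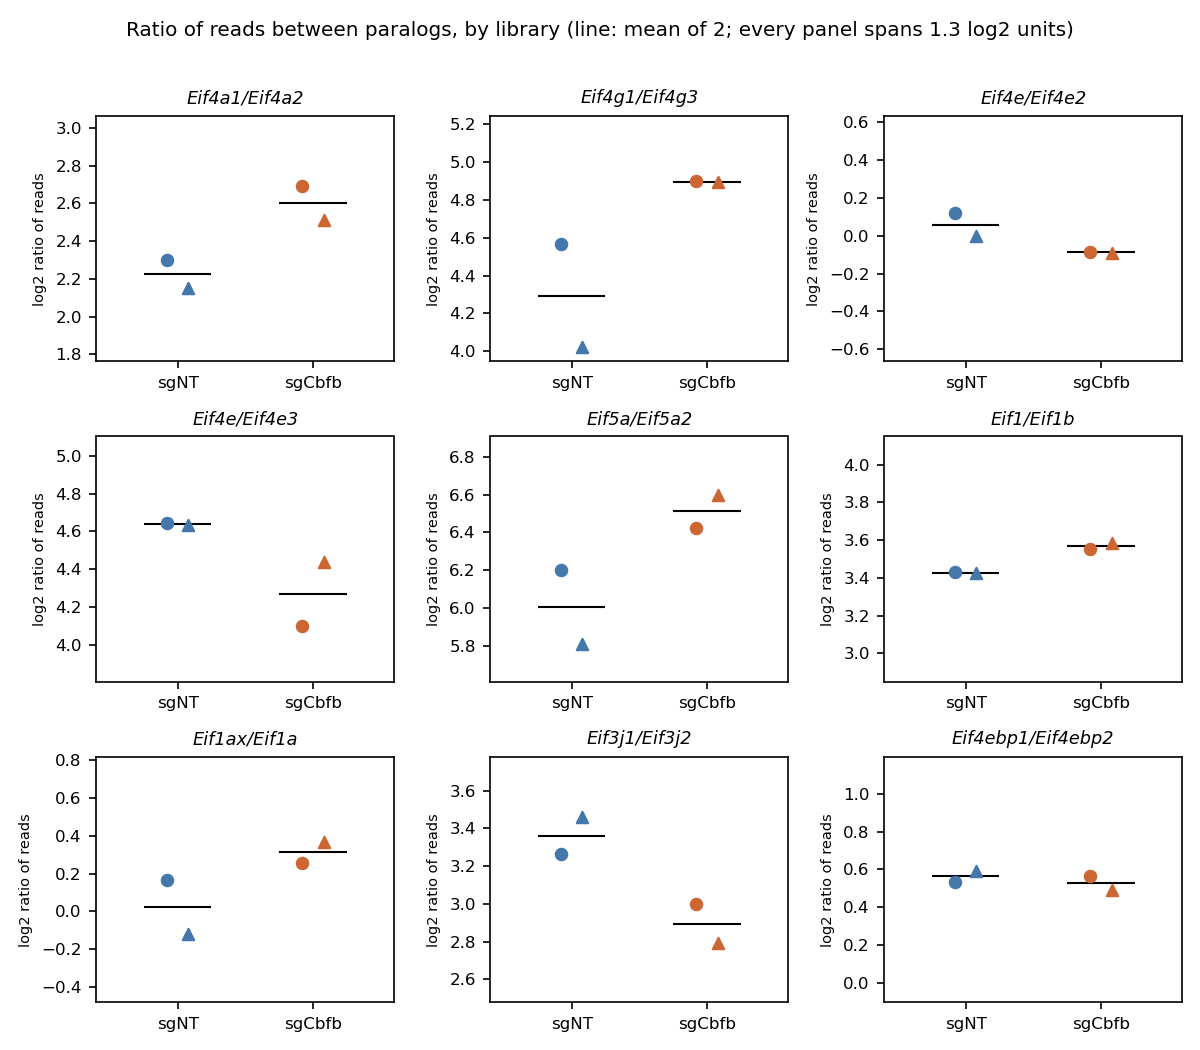
Log2 ratio of recovered reads between the members of 9 paralog pairs, by library (circle, replicate 1; triangle, replicate 2; line, mean of the 2). Every panel spans the same range of log2 units, and only Eif4ebp1 over Eif4ebp2 shows overlapping groups.

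Since CBFβ acts with RUNX proteins, the letters TGTGGT and TGCGGT were looked for on both strands in the 250 bases before the RefSeq start of each gene (GRCm38.p6). The motifs differ in a single letter, so that no match counts for both. An entry was found for 48 of the 64 genes. TGTGGT was present in 5 (Eef1a1, Eef1e1, Eif3a, Eif5a2 and Eif5b), beside 15.9% of 27025 genes, and TGCGGT in 4 (Eif2b5, Eif3a, Eif3g and Eif5a), beside 5.84%. Either was present in 8, which is 16.7% against 20.9%. Eif2a, Eif4g3, Eif4h and Eif4b have an entry and hold neither run of letters in this window. The windows below surround the match in the eIF5A paralogs, which hold different letters, and in Eef1a1, the most abundant factor, with the matched letters or their reverse complement in capitals.

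Eif5a2 (TGTGGT, chr3:28781236-28781265, plus strand): ctatcccggaagTGTGGTcgcggcggggcg

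Eif5a (TGCGGT, chr11:69920818-69920847, minus strand): caaaggctcctgTGCGGTtgaggaccggcg

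Eef1a1 (TGTGGT on the opposite strand, chr9:78481891-78481920, minus strand): ggtacccgccccACCACAgtgcgaggagca

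The match begins 29 bases before the annotated start in Eif5a2, 205 in Eif5a and 184 in Eef1a1. Of the 8 factors that hold either run of letters, Eif5a2 alone had an unadjusted p under 0.05 (limma). A match is a run of letters and was not tested for binding.

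A list of 44 further genes of the translation pathway was read beside the factors, covering the eIF2 kinases and their phosphatases, the poly(A)-binding proteins, mTOR and its targets, recycling factors and hnRNPK. All but Gcn1 were found by symbol and tested. Among these 43, 0 were called higher and 0 lower (limma), none was higher and 3 were lower at an unadjusted p under 0.05, and 10 lay above and 10 below without overlap. Over all tested genes 9.67% were higher and 5.23% lower at that unadjusted p, and 27.4% lay above and 16.8% below. Rps6, a small subunit protein phosphorylated downstream of mTOR, was at log2 CPM 8.44 in both sgNT libraries and had a difference of -0.22 (SE 0.068, adjusted p = 0.0884 from limma). Pabpc1, the cytoplasmic poly(A)-binding protein, differed by -0.15 (SE 0.049, adjusted p = 0.119 from limma). Both were picked after their values were seen. Pabpc1 passed with voom scaled by totals (adjusted p = 5.44e-05) or medians (2.42e-06), quantile normalization (0.00765), median centring (0.0287) and ribosomal RNA genes left out (0.0237), with a range of 2.42e-06 to 1 over all alternatives and a difference of -0.095 without the first sgCbfb library. Rps6 passed with a filter at 5 CPM (adjusted p = 0.0370), median centring (0.0473) and voom scaled by totals (0.0401) or medians (0.0107), with a range of 0.0107 to 0.778 and a difference of -0.145 without the first sgCbfb library. Hnrnpk, the other partner named in the reported role of CBFβ, had 3120 and 2875 reads in sgNT and 3728 and 2947 in sgCbfb. Its log2 CPM was 9.84 and 9.75 against 9.90 and 9.85, with no overlap. The difference was 0.077 (SE 0.055, 95% interval -0.036 to 0.19), without passing the threshold (limma, adjusted p = 0.567), and was 0.12 without the first sgNT library and 0.031 without the second.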

How the data were processed

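According to the submitters' processing notes, the authors trimmed reads with cutadapt 1.9, aligned them to mm10 with HISAT2 2.1.0 and counted them per gene with featureCounts 2.0.1 (the study's methods name another version of featureCounts). The authors deposited 1 table of log2 CPM values with a column per library. The annotation release, the use of strand and the treatment of reads matching more than 1 gene are not given in the sources used here, and any of these could change values of paralogs and overlapping genes.

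Low values step by whole reads once a prior count of 2 is removed, so reads were recovered from the deposited values. Within 0.1 of a whole number, 100% of values came out whole in 2 libraries and all but 1 gene in the other 2 (99.99%). Replicates differed by more than counting noise (chi-square per degree of freedom 1.58 in sgNT and 2.15 in sgCbfb over 9520 genes). Recovered reads gave the depths and the voom alternatives. The intervals cover the spread between libraries only.

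The test was limma 3.58.1 (R 4.3.3) on log2 CPM, using a trend of variance with mean. A gene entered when 2 or more libraries had a log2 CPM of 0 or above, which left 12207 genes. It was two-sided, with Benjamini-Hochberg adjustment over all tested genes and a threshold of 0.05. The study's methods name voom with limma, which needs counts, and it was run on the recovered reads as an alternative. Simulated libraries with 200 genes changed by 2-fold were tested, and 186 of them (93%) were found, with 6 false calls among 12231 genes. The changed genes were drawn from those with more reads, and a single fixed dispersion was used. Differences as small as those of the factors were not simulated, so the recovery of such differences is not known.

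Factors were named with values where they passed the threshold, had an unadjusted p under 0.05 or were the most abundant of their complex, with Eif4b and Hnrnpk in any case, and pathway genes where they passed the threshold. Others were picked after their values were seen and are marked so. The rule for members reads symbols only, but this gene family and the lists were proposed with earlier results of these data known. Samples were grouped by their labels. Positions, overlaps and shared 75-base words in the last 400 bases were read from GENCODE M21, and promoters from RefSeq. No sequence is printed for genes on chromosome 18, and protein sequences were not used here. Alternatives were 0.01 as threshold, no low-value filter or 5 CPM, quantile normalization, median centring, ribosomal RNA genes left out, no trend, voom with 2 scalings, a replicate block and each library left out.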

Additional observations from a re-analysis of the deposited data

How the results depend on the processing

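Over all tested genes the count called higher was 103 at an adjusted p of 0.01, 2 with no filter on low values, 300 with at least 5 CPM, 39 with quantile normalization, 0 with no mean-variance trend (limma, 911 at an unadjusted p under 0.05) and 0 to 115 with 1 library left out. The count called lower was 97 at 0.01, 53 with no filter, 44 with quantile normalization, 0 with no trend (550 unadjusted), 243 with voom and median scaling and 0 to 86 with 1 library left out. With no filter 26322 genes were tested. Factors called lower numbered 2 (Eif2a and Eif4g3) with at least 5 CPM, beside 209 of 9549 tested genes. The same 2 of 59 were called with median centring, beside 188 of 12207 genes, and with voom scaled by totals, beside 196, or by medians, beside 243. Factors called higher numbered 1 of 59 (Eif2s2) with voom on library totals, beside 258 of 12207 genes. No factor was called in the other settings that keep every library and have no replicate block. Pathway genes called lower numbered 1 with at least 5 CPM, 1 with quantile normalization, 1 with ribosomal RNA genes left out (beside 165 of 12205 genes), and 2 with median centring and with voom under either scaling. The factors' median difference ran from -0.013 to 0.0532 over the libraries left out, the highest without the second sgCbfb library. The cause of these shifts was not tested. Cbfb was at -1.27 in each of no filter (adjusted p = 0.290) and no trend (0.115), short of the threshold, and ranged from -1.41 to -1.12 with 1 library left out. With either sgCbfb library left out it did not pass. When an arm was left with 1 library, the lone library was assumed to vary like the other group.

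The same replicate number gave no sign of pairing (correlation of deviations -0.0042 over 2 pairs), and no label pairs the libraries. With a replicate block 320 of 12207 genes were called higher and 215 lower. Of the 59 factors 0 were called higher and 2 lower, Eif2a (limma adjusted p = 0.0291) and Eif4g3 (0.00949). Over all alternatives the adjusted p of Eif4g3 ran from 0.00949 to 1.

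Of the 59 factors, 42 kept their sign in every setting, 10 turned only with a library left out, and 56 were called in none. With median centring the sign turned for Eif3c at -0.0145, Eif3d at -0.0158, Eif3j1 at -3.15e-05, Eif5b at -0.00969. With quantile normalization the sign turned for Eif3d at -0.0265, Eif3j1 at -0.0147, Eif5a at 0.0123. With ribosomal RNA genes left out the sign turned for Eif3c at -0.0147, Eif3d at -0.016, Eif5b at -0.00988. Under voom with median scaling the sign turned for Eif3c at -0.0283, Eif3d at -0.0262, Eif3j1 at -0.0113, Eif5b at -0.0242, Eef1a1 at -0.0102, Eef1g at -0.00921. With 1 library left out, the lowest and highest differences of the factors whose sign turned were -0.0141 and 0.0661 for Eef1a1, -0.294 and 0.0382 for Eef1akmt1, -0.0753 and 0.00852 for Eef1d, -0.00367 and 0.0606 for Eef1g, -0.163 and 0.103 for Eef2k, -0.338 and 0.21 for Eef2kmt, -0.398 and 0.251 for Eif2d, -0.00304 and 0.0815 for Eif3a, -0.0352 and 0.052 for Eif3c, -0.0856 and 0.0997 for Eif3d, -0.0721 and 0.0532 for Eif3i, -0.0369 and 0.0825 for Eif3j1, -0.0262 and 0.00269 for Eif4e, -0.00756 and 0.156 for Eif4ebp1, -0.255 and 0.411 for Eif4ebp3, -0.0575 and 0.0523 for Eif5a, -0.0253 and 0.0516 for Eif5b. The pseudocount could not be varied, since the values were deposited as logs, and depth limits factors with few reads such as Eif3j2 and Eif4e3.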
